A study of Mus musculus with 12 samples.

Results

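The early loss of RNA, from 0 h to 4 h of actinomycin D, was compared between wild type (WT) and Tet2 knockout (KO) mouse leukemia cells. The comparison takes 8 of the 12 libraries of the series, 2 for each genotype at each of these times, and asks for each gene whether the change in KO cells differed from the change in WT cells. It was made for 11152 of the 24589 genes in the deposited table, those with at least 1 TPM (the share of a library's transcripts that a gene takes, corrected for length) in at least 2 of the 12 libraries. All libraries came from NRAS/AE9a cells, a mouse acute myeloid leukemia line named for its NRAS and AML1-ETO9a oncogenes. Both genotypes were grown in RPMI medium with the cytokines SCF, IL-3 and IL-6 and under G418 and puromycin, and both received 5 µg/ml actinomycin D. The remaining 4 libraries, 2 per genotype, were taken at 8 h. Each genotype is labelled as a single line, so genotype cannot be told apart from any other difference between these cells. The labels do not say whether the 2 libraries of a group were separate cultures, and p-values therefore reflect the spread among these libraries only, which may be technical.

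Actinomycin D binds DNA and stops transcription, so that afterwards an mRNA can only be kept or degraded. Transcripts of immediate early genes, which encode transcription factors and signalling regulators switched on within minutes of a stimulus, are among the shortest-lived in mammalian cells. Many carry AU-rich elements in the 3' untranslated region (UTR), where proteins such as tristetraprolin (Zfp36) recruit the deadenylation machinery. TET2 oxidises 5-methylcytosine in DNA and can act on the same modification in RNA, and the series asks what it does to mRNA in the stemness and homing of leukemia cells.

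Each gene's difference is the log2(TPM + 1) change from 0 h to 4 h in KO minus that in WT. A value of -1 means that log2(TPM + 1) fell by 1 unit more in KO, or gained 1 less. Where a gene was low at either time, the added 1 TPM makes this differ from the change in its share. Shares sum to the same total in each library and no added RNA standard is named, so every change is relative to the other transcripts. In such bulk samples fewer cells of a type and less RNA per cell cannot be told apart. The median change over all tested genes was -0.81 in WT and -0.70 in KO, and the median difference was 0.05.

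Tet2 itself was detected in every library. In WT it went from 13.1 and 16.0 TPM before the drug to 10.6 and 10.2 after 4 h, and in KO from 10.2 and 10.2 TPM to 6.42 and 5.82. KO libraries were below WT libraries at both times, and the difference of the change was -0.21 ± 0.18 (standard error, SE, n = 2 libraries per group, limma adjusted p = 0.609). Values summed over a gene do not tell which exons remain in a knockout. All 12 markers of myeloid leukemic cells, among them Spi1, Mpo and Ptprc, had at least 1 TPM in each of the 8 libraries. The T and natural killer cell markers Cd3d, Cd3e, Cd3g, Cd8b1 and Ncr1 and the B cell markers Pax5, Ebf1 and Vpreb3 were listed at 0 in all 8. The summed T and natural killer cell markers were 7.31 to 13.0 TPM in WT and 20.2 to 29.8 in KO at 0 h, and 4.72 to 6.52 against 19.2 to 20.7 at 4 h. Nearly all of this was Nkg7, a granule gene of cytotoxic cells, the only member with at least 1 TPM in all 8 libraries. It had 12.2 and 7 TPM in WT and 19.4 and 29.4 in KO at 0 h. The summed B cell markers were at most 2.65 TPM in any of the 8. Markers of mast cells and basophils went both ways: of 14 tested, 6 were lower and 6 higher in KO at 0 h, with a median KO minus WT of -0.23. The proteases Tpsb2 (-2.15) and Mcpt4 (-2.85) were lower in KO, while Cpa3, at a mean of 958 TPM in WT and 3129 in KO, made up most of the sum. The summed level of all 16 genes, 10 of them at 1 TPM or more in all 8 libraries and only Mcpt1 at 0, was 1184 to 1314 TPM in WT and 3455 to 3640 in KO at 0 h. At 4 h it was 1573 to 1686 in WT and 4461 to 4776 in KO. The summed erythroid markers, 15 genes with Hba-a2, Hbb-bs, Alas2 and Car1 at 0, were 167 to 199 TPM in WT and 731 to 733 in KO at 0 h, and 220.0 to 231 against 869 to 935 at 4 h. The part of these cells or programs in the differences that follow was not tested. The 2 WT libraries at 0 h differed more than other pairs: their 10 most abundant genes took 22.0% and 17.8% of all TPM, against 13.4% in both KO libraries at 0 h.

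In all, 39 of 11152 genes (0.35%) passed an adjusted p of 0.05 for the genotype difference. The KO change was below the WT change in 33 of them (0.296%) and above it in 6 (0.0538%). The smallest p in the first group were those of Junb, Tmsb10, Id1, Snhg20 and Cited2. Among its 33 genes, 11 were on a list of immediate early genes and other genes of short-lived transcripts. This list, called the immediate early list or immediate early genes below, was chosen with earlier results of these data known. The courses differed among the 39 genes. In 21 genes log2(TPM + 1) had a negative change in WT and a more negative one in KO. For Gfi1b and Mycn, both low, this did not hold for the share left at 4 h. In 12 genes the WT change was positive and the KO change smaller or negative. In the remaining 6 the KO change was above the WT change. The lowest adjusted p was 0.000598, for Junb, and 1763 genes had an unadjusted p under 0.05.

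**Figure D1:**
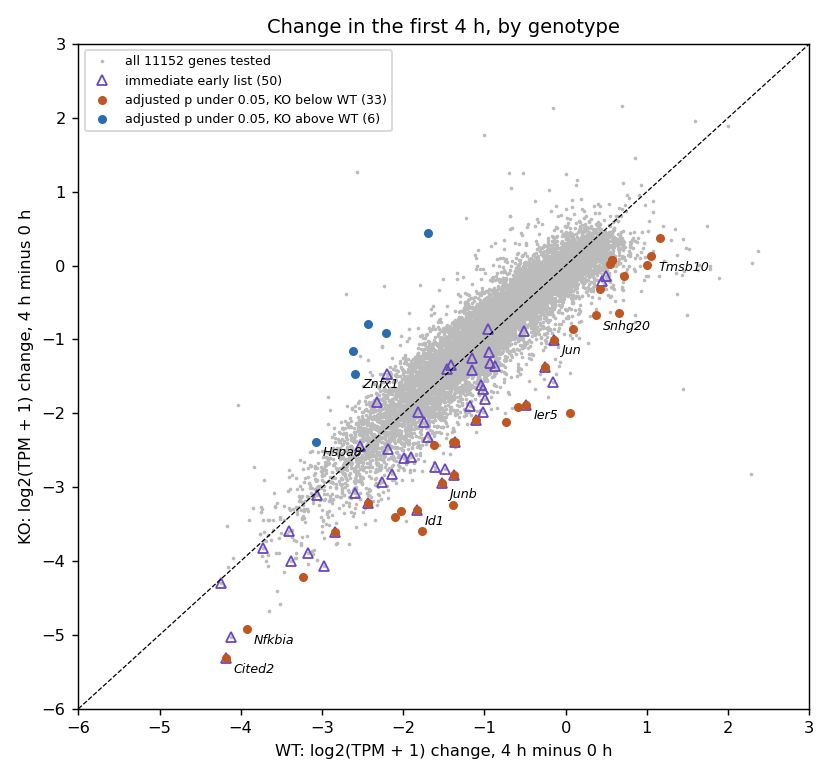
Change from 0 h to 4 h in log2(TPM + 1) for each tested gene, in WT on the horizontal axis and in KO on the vertical axis, with the genes past the threshold coloured by direction. Most genes lie near the diagonal; the 33 genes with a lower change in KO lie below it, from deep losses such as Cited2 to transcripts that gained share in WT such as Tmsb10, and 6 lie above it.

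Of 56 immediate early genes and genes of short-lived transcripts in the table, 50 were tested, and 11 of the 50 (22.0%) had a lower change in KO, none a higher one. The difference was below 0 in 44 of 50, against 41.8% of all tested genes. The median difference of the list was -0.65, from a median change of -1.56 in WT and -2.22 in KO. In 33 of 50 (66%) every pair of a 4 h and a 0 h KO library gave a lower change than every WT pair, which held for 12.9% of all genes. The opposite separation was seen in 1 member, Bcl6, and in 21.8% of all genes.

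As a sum, the 50 transcripts took 3058 and 3476 TPM in WT and 2989 and 3028 TPM in KO at 0 h. At 4 h they took 741 and 787 TPM in WT and 380.7 and 369.8 TPM in KO. KO lay slightly below WT before the drug and far below it at 4 h, and 23.4% of the starting level was left in WT against 12.5% in KO.

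**Figure D2:**
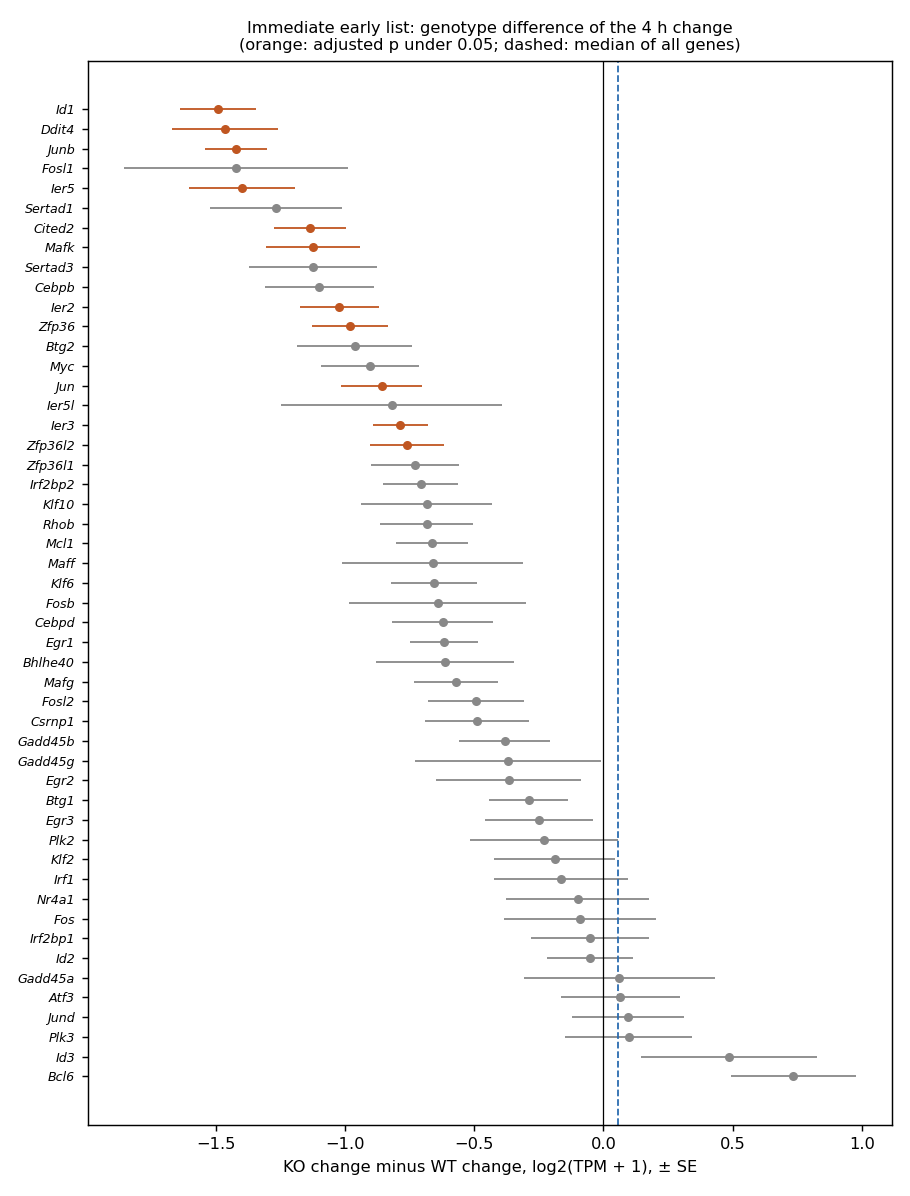
Difference of the 4 h change (KO minus WT, log2(TPM + 1)) with its standard error for the 50 tested immediate early genes, in order, with those past the threshold marked and the median of all tested genes drawn as a line. The members run from -1.49 for Id1 to 0.73 for Bcl6, and 44 lie below 0.

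Both Junb and Jun, subunits of the AP-1 transcription factor, differed. Junb went from 149 and 174 TPM to 55.4 and 55.2 in WT. In KO it went from 146 and 149 TPM to 17.8 and 18.8. Levels were close between genotypes at 0 h, while at 4 h both KO libraries were below both WT libraries. The share left was 34.3% in WT and 12.4% in KO, a difference of -1.42 ± 0.12 (SE, limma adjusted p = 0.000598). Junb is a single-exon gene on chromosome 8 (GRCm38, 84974484 to 84978718, minus strand). Jun had 32.0 and 37.0 TPM in WT at 0 h and 29.1 and 33.0 at 4 h, and in KO 24.7 and 24.8 at 0 h and 11.6 and 12.01 at 4 h. Its libraries overlapped between times in WT and were separate in KO. The WT change of -0.15 did not pass the threshold (adjusted p = 0.237), the KO change was -1.01, and the difference was -0.86 ± 0.16 (SE, limma adjusted p = 0.0451). Fos, the usual partner of Jun proteins, had changes of -3.73 in WT and -3.82 in KO (difference -0.09, adjusted p = 0.918), and Jund had a difference of 0.09 (adjusted p = 0.877).

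The inhibitor of DNA binding Id1, which blocks basic helix-loop-helix factors, started higher in KO. It had 154 and 189.7 TPM in WT at 0 h and 47.6 and 47.6 at 4 h, and 264 and 274 TPM in KO at 0 h and 28.7 and 23.8 at 4 h. The order of the genotypes thus turned between the times, with no overlap at either. The difference was -1.49 ± 0.15 (SE, limma adjusted p = 0.0012), and 27.7% was left in WT against 9.75% in KO. Id1 lies on chromosome 2 from 152736251 to 152737410, plus strand. Its paralogs did not pass: Id2 had a difference of -0.05 (adjusted p = 0.92) and Id3 of 0.49 (0.52).

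Cited2, a regulator of the CBP and p300 coactivators, had the deepest loss among the 11. It went from 248 and 307 TPM to 14.2 and 14.3 in WT, and from 331 and 317 TPM to 7.11 and 7.18 in KO. At 4 h the KO libraries held about the same level as each other and lay below both WT libraries, with 5.14% left in WT and 2.21% in KO. The difference was -1.14 ± 0.14 (SE, limma adjusted p = 0.00742).

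The immediate early response genes Ier2, Ier3 and Ier5 changed in the same direction. Ier2 fell from 164 and 181 TPM to 59.6 and 74.4 in WT and from 183 and 186 TPM to 34.9 and 34.2 in KO (difference -1.02 ± 0.15, SE, limma adjusted p = 0.0167). Ier3 fell from 146 and 149 TPM to 26.5 and 26.6 in WT and from 118 and 119.6 TPM to 12.1 and 11.7 in KO (difference -0.79 ± 0.11, adjusted p = 0.0123). Ier5 fell from 24.9 and 29.8 TPM to 17.4 and 21.2 in WT and from 27.0 and 27.0 TPM to 7.68 and 5.66 in KO (difference -1.40 ± 0.21, adjusted p = 0.0167). In all 3 genes the KO libraries at 4 h lay below the WT libraries at 4 h. Ddit4, a stress-induced inhibitor of mTORC1, went from 19.1 and 22.5 TPM to 7.57 and 7.20 in WT and from 33.4 and 41.8 TPM to 3.95 and 4.81 in KO (-1.46 ± 0.20, adjusted p = 0.0123). It started higher and ended lower in KO, with no overlap at either time. Mafk, a small Maf transcription factor, had 14.7 and 18.9 TPM in WT at 0 h, 13.1 and 14.7 at 4 h, and in KO 19.9 and 18.7, then 6.80 and 6.84 (-1.12 ± 0.18, adjusted p = 0.0239). Its WT change of -0.25 did not pass (adjusted p = 0.092).

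Among the members that missed the threshold were known short-lived transcripts with a difference of similar size. Cebpb, a myeloid transcription factor, had -1.10 ± 0.21 (SE, limma adjusted p = 0.0551). Myc had -0.90 ± 0.19 (0.0727), Egr1 -0.62 ± 0.13 (0.0765) and the antiapoptotic Mcl1 -0.66 ± 0.14 (0.0689). These members were picked after their values were seen. Others had differences near 0: Irf2bp1 -0.05 (adjusted p = 0.941), Atf3 0.06 (0.927) and Nr4a1 -0.10 (0.902).

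Tristetraprolin and its paralog bind AU-rich elements and carry such elements in their own 3' UTRs. They were 2 of the 74 tested genes of the mRNA decay machinery, and the only ones past the threshold. They made up 2.7% of that list, where 0.296% of all tested genes had a lower change in KO. Both are also on the immediate early list. Zfp36 fell from 97.1 and 109 TPM to 42.4 and 52.3 in WT and from 95.6 and 101 TPM to 22.3 and 22.4 in KO (difference -0.98 ± 0.15, SE, limma adjusted p = 0.0167). Zfp36l2 fell from 192 and 222 TPM to 27.3 and 28.6 in WT and from 229 and 231 TPM to 17.99 and 18.2 in KO (-0.76 ± 0.14, adjusted p = 0.0488). In both genes the 4 h libraries of KO were below those of WT while the 0 h libraries overlapped or were close. The third family member, Zfp36l1, had -0.73 ± 0.17 (adjusted p = 0.0941), and the deadenylase recruiter Tob1 had -1.03 ± 0.20 (0.0577). Over the 74 genes the median difference was 0.04, near the 0.05 of all genes.

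The 3' UTRs of the genes with a lower change in KO were searched on the transcript strand for TATTTAT, the core of an AU-rich element, counting overlapping matches. The motif was present in 11 of 31 such UTRs (35.5%), in 25 of 49 UTRs of the immediate early list (51%) and in 27.8% of the 10442 UTRs of all tested genes. Of the 31, genes with a negative WT change had it in 6 of 21 UTRs (28.6%), near the share of all genes. Those with a positive WT change had it in 5 of 10 (50%). Genes with a higher change in KO had it in 3 of 6 (50%). The sites below are shown because they belong to genes past the threshold with 3 or more matches. Each is a window of 30 bases from the GRCm38 assembly, written 5' to 3' on the transcript strand, with matches to TATTTAT in capitals.
Tnf, chr17:35199678-35199707, minus strand: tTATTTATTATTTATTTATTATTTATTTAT
Ier3, chr17:35822484-35822513, plus strand: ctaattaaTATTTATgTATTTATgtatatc
Ppp1r15a, chr7:45522951-45522980, minus strand: tcctatTATTTATTTATTTATTTATttgaa
Gem, chr4:11713929-11713958, plus strand: gtcaagagtcagTATTTATtcataggaaaa
Zfp36, chr7:28376958-28376987, minus strand: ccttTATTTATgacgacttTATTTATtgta
Zfp36l2, chr17:84184914-84184943, minus strand: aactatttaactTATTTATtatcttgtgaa
Tnf had 8 matches in a 3' UTR of 764 nt, 5 of them in the window shown. Ier3 and Ppp1r15a had 4 each, and Gem, Zfp36 and Zfp36l2 had 3 each. The UTRs of Junb, Id1, Ier2, Cited2, Ddit4 and Socs1, which had some of the strongest calls or largest differences, held no match. A match is a description of these letters and not a measured binding site.

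Other sequence features were also unlike those of all genes. The median GC content of the immediate early transcripts was 54.9% and that of all tested genes 50.2%, and 22% against 2.99% were single-exon transcripts. Across all genes with a matched transcript, the difference and GC content had a Spearman correlation of -0.227, as a description, since genes share libraries. With genes split by GC content into 5 bins of about equal size, the median difference from the lowest to the highest bin went from 0.13 through 0.13, 0.07 and 0.02 to -0.06. With a trend on GC content removed from each library, an alternative chosen after the data were seen, 9 immediate early genes had a lower change past the threshold and the list's median was -0.62.

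Feedback inhibitors of the RAS-ERK, JAK-STAT and NF-kappaB pathways had 2 of 30 tested members past the threshold (6.67%), both lower in KO, as were 0.296% of all tested genes. The difference was below 0 in 25 of 30 (83.3%), against 41.8% of all genes, and the median was -0.39. Socs1, an inhibitor of Janus kinases, had 19.5 and 23.3 TPM in WT at 0 h and 5.44 and 5.68 at 4 h, and in KO 53.6 and 46.9 TPM at 0 h and 2.32 and 4.43 at 4 h. It was higher in KO before the drug and lower at 4 h, with a difference of -1.83 ± 0.31 (SE, limma adjusted p = 0.0264). Nfkbia, which encodes the NF-kappaB inhibitor IκBα, went from 77.1 and 82.8 TPM to 4.15 and 4.51 in WT and from 61.0 and 59.9 TPM to 1.28 and 0.80 in KO (-0.997 ± 0.18, adjusted p = 0.0451). KO was below WT at both times, and the share left was 5.42% in WT and 1.72% in KO. Cish, another cytokine-induced inhibitor, had -0.82 ± 0.16 (adjusted p = 0.0515).

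The cytokine gene Tnf, a target of tristetraprolin, went from 31.5 and 31.3 TPM to 10.2 and 12.8 in WT and from 27.3 and 27.1 TPM to 4.56 and 4.21 in KO. KO was below WT at both times, by more at 4 h, with a difference of -1.01 ± 0.16 (SE, limma adjusted p = 0.0239). Clk1, a kinase of splicing factors, and Ccnl1, a cyclin of the transcription and splicing machinery, are of like function. Clk1 went from 32.3 and 36.7 TPM to 8.86 and 6.60 in WT and from 34.0 and 35.1 TPM to 2.23 and 2.89 in KO (-1.29 ± 0.22, adjusted p = 0.0336). Ccnl1 had -0.80 ± 0.14 (0.0403), with 31.2% left in WT and 16.9% in KO. In both, 0 h levels overlapped and the 4 h levels did not. Slfn2, a Schlafen family gene induced by interferon, started lower in KO (191 and 189.9 TPM, against 320.1 and 371 in WT) and reached 8.90 and 9.67 TPM at 4 h, against 33.8 and 37.9 in WT (-0.99 ± 0.17, adjusted p = 0.0376).

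**Figure D3:**
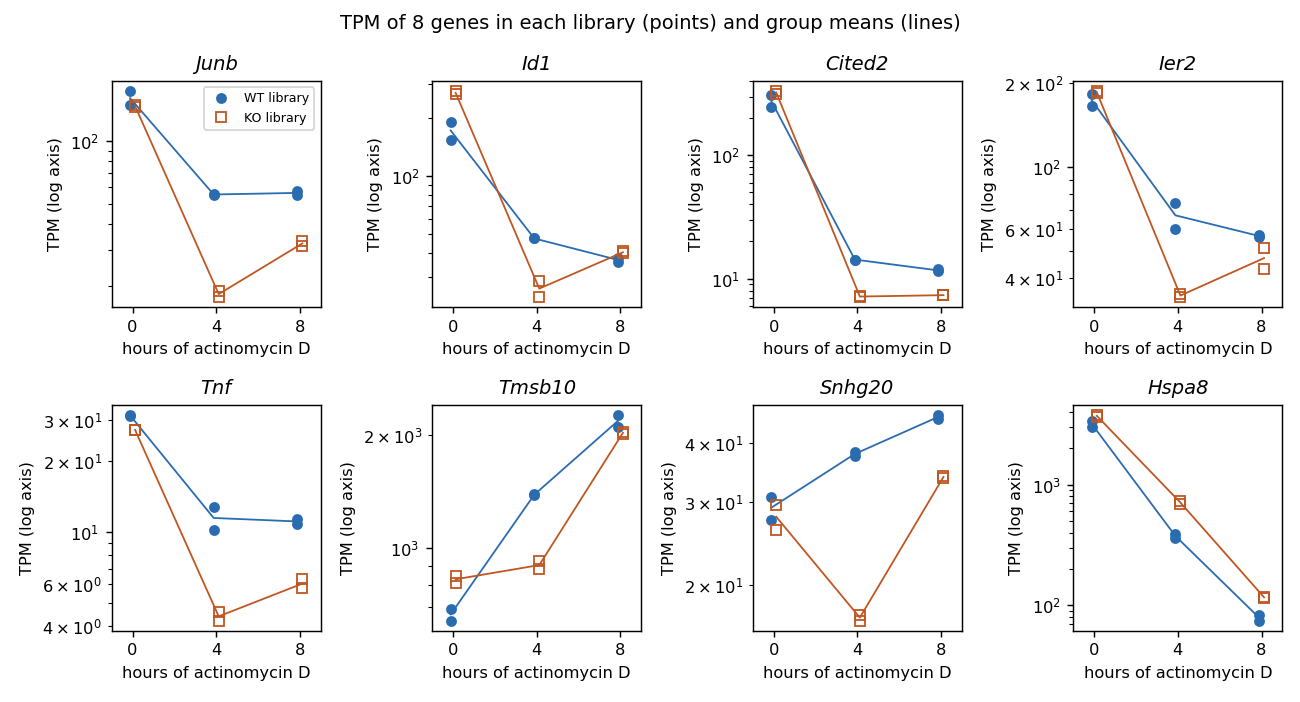
TPM on a log axis at 0, 4 and 8 h of actinomycin D in the single libraries of WT and KO cells for genes past the threshold, with lines through the group means. Junb and Id1 are separated at 4 h with KO below WT, Tmsb10 gains share in WT by 4 h and in KO only by 8 h, and Hspa8 is higher in KO at 4 h.

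Another course was seen in 12 genes whose share had a positive change in WT. In 10 of them the WT change passed the threshold, and the KO change passed downward in 5, upward in 1, Cxcl3, and not at all in 6. Among all tested genes the WT change was higher in 6.77% and lower in 71%, and the KO change higher in 4.88% and lower in 68%. Tmsb10, which encodes the actin-sequestering thymosin beta 10, had 644 and 692 TPM in WT at 0 h and 1393 and 1385 at 4 h. In KO it had 812 and 845 TPM at 0 h and 879 and 927 at 4 h. The WT level at 4 h was 208% of that at 0 h, while the KO change of 0.12 did not pass (adjusted p = 0.0783), and the difference was -0.93 ± 0.08 (SE, limma adjusted p = 0.000725). At 8 h, in libraries outside this comparison, Tmsb10 reached 2261 and 2100.5 TPM in WT and 2037 and 2018 in KO.

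Transcripts of this course encode proteins of unlike function. Atp6v0c, a proton pump subunit, had 1018 and 1146 TPM in WT at 0 h and 1515 and 1636 at 4 h, and in KO 926 and 899, then 963 and 884 (-0.53 ± 0.10, SE, limma adjusted p = 0.0467). Ptms, parathymosin, went from 173 and 191 TPM to 270.1 and 272 in WT, and in KO from 146 and 153 to 158.0 and 158.3 (-0.49 ± 0.09, adjusted p = 0.0402). Both genes gained share in WT without overlap of the times, and their KO changes of 0.02 and 0.08 did not pass. The prefoldin subunit Pfdn2 had -0.74 ± 0.12 (0.0239), the chaperone-like Hypk -0.86 ± 0.12 (0.0123) and the phosphoprotein gene Pdap1 -0.50 ± 0.09 (0.0467). These were higher in KO at 0 h and close between genotypes at 4 h.

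The immune genes H2-Aa and Cxcl3 started lower in KO and drew further apart. H2-Aa, an MHC class II chain, went from 22.0 and 22.6 TPM to 45.5 and 45.6 in WT and was at 7.68 and 8.99, then 8.08 and 8.62, in KO (-0.99 ± 0.17, SE, limma adjusted p = 0.0263). Cxcl3, a neutrophil-attracting chemokine, went from 24.9 and 25.2 TPM to 60.9 and 54.1 in WT and from 19.5 and 18.5 to 24.1 and 25.6 in KO (-0.80 ± 0.12, adjusted p = 0.0167). Ppp1r15a, the GADD34 subunit that directs dephosphorylation of eIF2α, had 14.2 and 16.0 TPM in WT at 0 h and 15.5 and 16.9 at 4 h. In KO it went from 22.6 and 19.5 TPM to 10.7 and 11.5 (-0.96 ± 0.15, adjusted p = 0.0225). Its WT libraries overlapped between times and its KO libraries did not.

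Noncoding transcripts were 2 of these 12. The snoRNA host Snhg20 had 27.5 and 30.8 TPM in WT at 0 h and 37.6 and 38.3 at 4 h, and in KO 26.2 and 29.6, then 16.9 and 17.3. It gained share in WT and lost share in KO from like starting levels, with a difference of -1.04 ± 0.13 (SE, limma adjusted p = 0.00742). The transcript 2410006H16Rik went from 43.8 and 50.3 TPM to 71.2 and 78.6 in WT and from 97.5 and 102 TPM to 54.9 and 73.0 in KO (-1.31 ± 0.17, adjusted p = 0.00963). The genotypes were apart at 0 h, with KO higher, and overlapped at 4 h. Of 22 tested snoRNA hosts and long noncoding RNAs, Snhg20 was the only one past the threshold (4.55%, against 0.296% of all genes). The median difference of this list was 0.02.

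Only 2 of the 6 genes with a higher change in KO had at least 5 TPM at 0 h in both genotypes. Hspa8, the constitutive cytosolic HSP70 chaperone, had 3007 and 3368 TPM in WT at 0 h and 392 and 360.0 at 4 h, and in KO 3778 and 3669, then 689 and 733. It fell in both genotypes and at 4 h was higher in both KO libraries, with 11.8% left in WT and 19.1% in KO (0.69 ± 0.11, SE, limma adjusted p = 0.0201). Znfx1, a helicase that senses viral RNA, went from 30.9 and 35.6 TPM to 4.83 and 4.49 in WT and from 42.2 and 40.7 TPM to 15.1 and 13.7 in KO (1.13 ± 0.16, adjusted p = 0.0123). At 4 h 14.0% was left in WT and 34.8% in KO, and the KO libraries were above the WT libraries at both times. Of 34 tested chaperones Hspa8 was the only one past the threshold, where 0.0538% of all tested genes had a higher change in KO. The difference was above 0 in 28 chaperones, against 58.2% of all genes, and the median was 0.11. Under median-ratio scaling 21 of 34 were above 0 and the median was 0.05, with all genes at -0.01. Across the alternatives the list's median lay 0.0012 to 0.09 above that of all genes.

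A further 9 calls were of genes under 5 TPM at 0 h in at least 1 genotype, where adding 1 TPM compresses a change. Gem, a small GTPase, had 0.55 and 0.15 TPM in WT at 0 h against 5.19 and 4.42 in KO, and all 4 libraries at 4 h were between 0.17 and 0.64 TPM, so a loss could be seen in KO alone (difference -2.05 ± 0.29, SE, limma adjusted p = 0.0123). Gfi1b, a repressor of erythroid and megakaryocyte cells, had a difference of -1.30 although 2.21% was left in WT and 3.21% in KO. With a pseudocount of 0.1 its difference was -0.29 (adjusted p = 0.881). Mycn had 0.68 and 0.35 TPM in WT and 2.69 and 2.87 in KO at 0 h and was listed at 0 in all 4 libraries at 4 h. Of the same kind were Mc5r, Klhl11 (just under 5 TPM in WT), Chst15, Tifab, Ifit1 and Lenep. Ifit1, an interferon-induced RNA-binding protein, had 15.3 and 19.8 TPM in WT at 0 h and only 1.83 and 1.06 in KO, so its higher KO change (1.64 ± 0.27, adjusted p = 0.025) started near the floor. Without these 9 genes 28 calls were lower and 2 higher in KO.

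The interferon-stimulated genes as a list were mostly above 0, in 47 of 60 tested (78.3%, against 58.2% of all genes). Their median was 0.20, beside 0.05 for all genes. Past the threshold, 1 member had a lower change in KO (Slfn2) and 1 a higher one (Ifit1), beside 0.296% and 0.0538% of all genes. Of the 60, 54 were lower in KO already at 0 h (11.5% of all genes), so the loss in KO was measured from a lower level. Under median-ratio scaling 33 of 60 were above 0 and the median was 0.06, and with a mean of at least 5 TPM added, chosen after the data were seen, it was -0.03 over 43 genes. Cmpk2, with 10.4 TPM in WT and 2.05 in KO at 0 h, had a difference of 1.31 ± 0.26 (SE, limma adjusted p = 0.0653).

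Cell cycle genes also leaned above 0, with none past the threshold in either direction. Of 39 mitosis genes 37 had a difference above 0 (94.9%, against 58.2% of all genes), and the median was 0.27, from -1.43 in WT and -1.13 in KO. In 23 of them (59%) the KO pairs were all above the WT pairs, against 21.8% of all genes. The spindle motor Kif11 had 0.62 ± 0.15 (SE, limma adjusted p = 0.101) and cyclin Ccna2 0.58 ± 0.16 (0.135). The 39 replication genes had a median of 0.20, 34 of them above 0 (87.2%), with 0.70 ± 0.17 for Cdc45 (0.109), which loads onto the replicative helicase. Without WT 0 h replicate 2 the median of replication genes was 0.09 and that of mitosis genes 0.21, with all genes at -0.02.

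**Figure D4:**
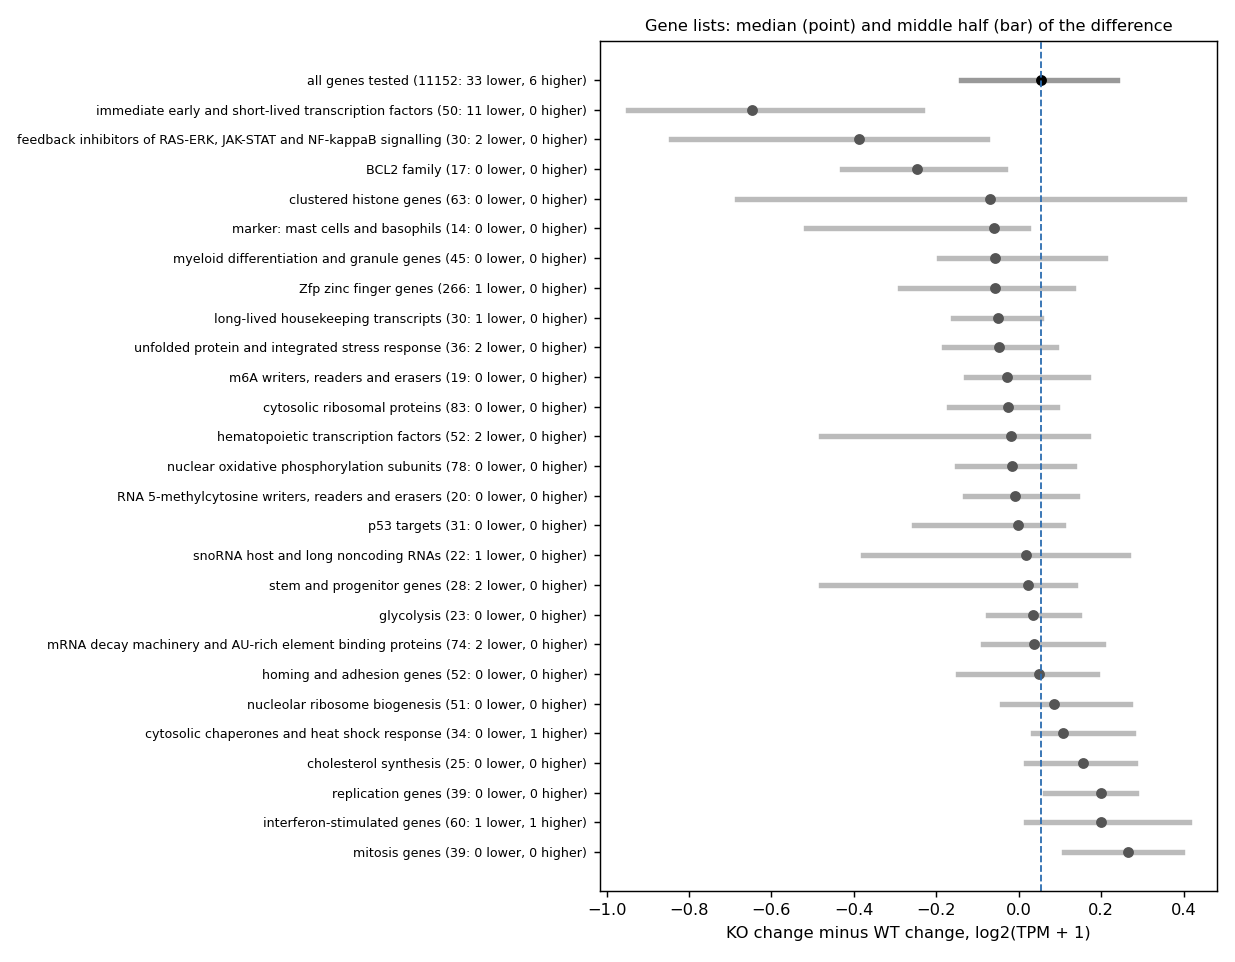
Difference of the 4 h change (KO minus WT, log2(TPM + 1)) by gene list, with the median and the range from the lower to the upper quartile, beside all tested genes. The immediate early list (median -0.65) and the feedback inhibitors (-0.39) lie lowest, and mitosis genes (0.27) lie highest among lists with 5 or more tested members.

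Machinery named by the study's question did not pass. With 0.35% of all tested genes called in either direction, lists this small would usually hold no call. None of 20 genes that write, read or erase 5-methylcytosine in RNA was past the threshold in either direction, and their median was -0.01. Ybx1, a reader of 5-methylcytosine in mRNA, had 655 and 813 TPM in WT at 0 h and 1144 and 1095 at 4 h, and in KO 964 and 940.5, then 1173 and 1205 (-0.30 ± 0.12, SE, limma adjusted p = 0.252). None of 19 m6A genes passed, with a median of -0.03. Of 52 homing and adhesion genes none passed, and the median was 0.05. The chemokine receptor Cxcr4 fell in both genotypes, from 96.9 and 122 TPM to 13.5 and 12.8 in WT and from 71.3 and 68.1 TPM to 4.97 and 5.58 in KO (-0.54 ± 0.20, adjusted p = 0.228). Tspan13, a tetraspanin, had 2.27 and 2.90 TPM in WT at 0 h and 2.52 and 2.70 at 4 h, and in KO 9.54 and 8.95, then 10.6 and 9.04 (0.06 ± 0.29, adjusted p = 0.95). It was higher in KO at both times by a similar amount.

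Lists of other programs held at most 2 calls each. Of the genes called in them, Ddit4 and Zfp36 are also on the immediate early list. Among 17 BCL2 family genes none passed, with a median of -0.25 and the proapoptotic Bbc3 at -1.04 ± 0.21 (SE, limma adjusted p = 0.0654). Among 36 genes of the unfolded protein and integrated stress response, Ddit4 and Ppp1r15a passed (5.56%, against 0.296% of all tested genes). Of 28 stem and progenitor genes Gfi1b and Mycn passed (7.14%), both of them low. These were also the 2 called among 52 hematopoietic transcription factors (3.85%). Cebpa, a driver of granulocyte fate, had -0.87 ± 0.17 (adjusted p = 0.0515), with changes of -3.17 in WT and -4.04 in KO. Tmsb10 was the only call among 30 long-lived housekeeping transcripts (3.33%), and Zfp36 the only one among 266 zinc finger genes named Zfp (0.376%). No call fell among 45 myeloid differentiation genes (median -0.06), 83 ribosomal proteins (-0.03), 78 oxidative phosphorylation subunits (-0.02), 63 clustered histones (-0.07), 31 p53 targets (-0.0017), 25 cholesterol synthesis genes (0.16), 23 glycolysis genes (0.03) or 51 nucleolar ribosome biogenesis genes (0.08). The tested markers of other cell types held no call. These were 1 of T and natural killer cells, 1 of B cells, 7 erythroid and 14 of mast cells and basophils. Megakaryocytes had 8 and stroma and endothelium 4. With 0.35% of all tested genes called, lists of such sizes would usually hold no call.

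The 8 h libraries give a later look at the same genes. They do not enter the difference itself, but they were in the filter and in the fit that set its spread. The 8 h look is thus not independent of the calls. KO was below WT at 8 h in 34 of the 50 immediate early genes and above it in none, where 12.1% of all genes were lower and 37.3% higher. At 0 h 18 of the 50 were lower and 4 higher in KO, beside 11.5% and 14.3% of all genes. The summed immediate early level at 8 h was 694 and 733 TPM in WT and 476 and 442 in KO, so 21.8% of the 0 h level was left in WT and 15.3% in KO. Between 4 h and 8 h the summed level went down slightly in WT and up in KO. For Junb the 8 h values were 57.8 and 54.8 TPM in WT and 33.0 and 31.3 in KO, a log2 gap of -0.79 ± 0.08 (SE, limma adjusted p = 9.21e-06), and for Jun 30.7 and 36.9 against 17.9 and 17.3 TPM. Id1 had 37.6 and 36.1 TPM in WT and 40.8 and 40.0 in KO at 8 h, and this gap of 0.13 did not pass (adjusted p = 0.338). Over the 33 genes with a lower change in KO, 17 were lower and 4 higher in KO at 8 h.

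The number of calls rested on single libraries, since a group has only 2. Leaving out a library changed the 33 lower calls to 15 without WT 0 h replicate 1, 79 without WT 0 h replicate 2, 19 and 11 without WT 4 h replicate 1 or 2, 9 and 8 without KO 0 h replicate 1 or 2, and 11 and 11 without KO 4 h replicate 1 or 2. The 6 higher calls became 7, 19, 5, 3, 1, 2, 1 and 2 in the same order. In these fits the 11 lower immediate early calls ranged from 3 to 13, while 42 to 46 of the 50 members were below 0 and the median ran from -0.76 to -0.51. All 39 called genes kept their sign in each of them. This could not have come out otherwise, since their pairwise changes did not overlap between the genotypes. The same holds for the sign of the 33 immediate early members whose KO pairs were all below the WT pairs. Junb, Id1, Cited2, Snhg20, Tmsb10 and 2410006H16Rik kept their call without any 1 library. Each of the remaining 33 lost it in 3 (Ddit4, Hypk) to 9 (Atp6v0c, Ptms, Zfp36l2) of the 12 fits.

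**Figure D5:**
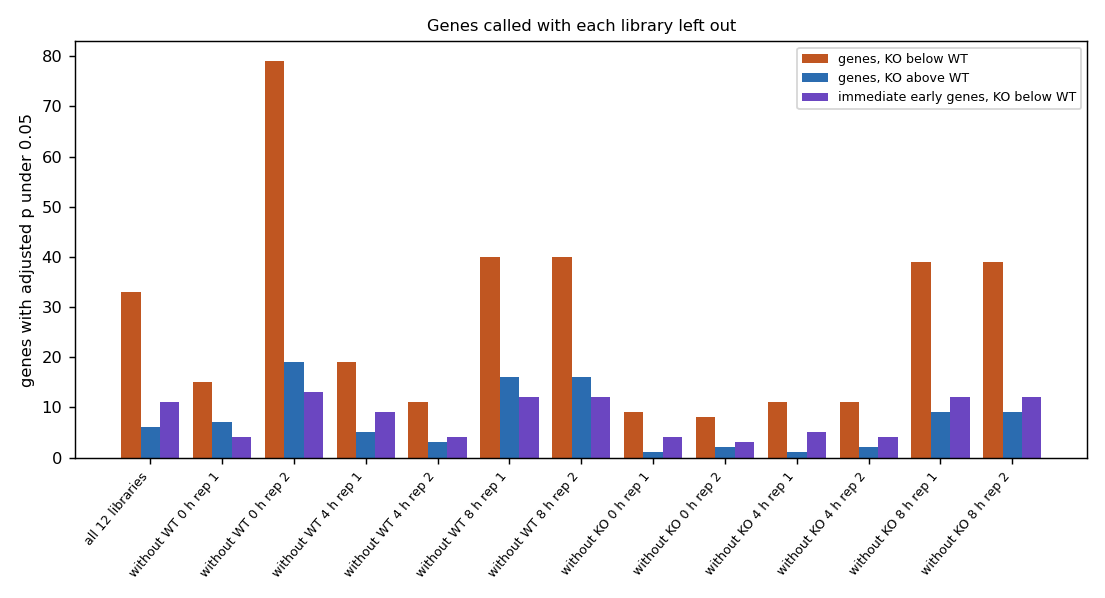
Number of genes past an adjusted p of 0.05 (bars, vertical axis from 0) with all 12 libraries and with each library left out in turn, for a lower change in KO, a higher change in KO, and a lower change among the immediate early genes. The lower calls run from 8 without KO 0 h replicate 2 to 79 without WT 0 h replicate 2.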

How the data were processed

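RNA was measured by sequencing in 12 libraries of NRAS/AE9a leukemic cells, of which the 8 at 0 and 4 h of 5 µg/ml actinomycin D enter the comparison. The values are TPM per gene as deposited by the authors. Extraction was with TRIzol, library preparation with the KAPA stranded mRNA kit and sequencing paired-end, per the labels' protocols. STAR, RSEM and mm10 are named in the submitters' processing notes. Tool versions, annotation and strand setting were not given in the sources used here. Reads of overlapping, antisense or near-identical genes may therefore be split between them. TPM keep no depth, so no counting interval could be given.

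TPM were used on the log2(TPM + 1) scale, which understates changes of low genes. A linear model was fitted with limma 3.58.1 (R 4.3.3), in which each of the 6 groups of 12 libraries had its own mean, leaving 6 residual degrees of freedom. Spread was moderated by empirical Bayes, allowing a trend with mean expression. Adjusted p are Benjamini-Hochberg values over 11152 genes, with a threshold of 0.05, two-sided. The fit was tested on simulated data. Across genes, r was 0.992 to 0.994 within groups and at most 0.974 between groups.

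The members and the 31 gene lists were chosen with earlier results of these data known. The rule for named genes took Cxcr4, Tet2, Tspan13 and Ybx1, the 15 largest differences each way past the threshold with at least 5 TPM at 0 h in each genotype and no overlap of the pairwise changes, the 5 most abundant each way, and the 4 members of each list with the smallest p. Symbols starting with Gm, ending in Rik or -ps, or turned into dates (19 tested) were left out. The 12 called genes outside this rule, and other members of the immediate early list, were named after their values were seen. GENCODE M21 on GRCm38 gave transcripts for 97.3% of tested genes, and the authors' annotation may differ. Alternatives were other scalings, filters, pseudocounts and spreads, an added limit on the size of the difference, a replicate block, the 8 libraries alone, a length trend, and each library left out.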

Additional observations from a re-analysis of the deposited data

Results flagged for a closer look

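For 39 genes the change from 0 h to 4 h of actinomycin D differed between the genotypes by a test of the difference itself, the interaction term of limma with a Benjamini-Hochberg adjusted p under 0.05 (n = 2 libraries per group). Values are differences in log2(TPM + 1), KO change minus WT change. Among members of the immediate early list these were Id1 at -1.49, Ddit4 at -1.46, Junb at -1.42, Ier5 at -1.40, Cited2 at -1.14, Mafk at -1.12, Ier2 at -1.02, Zfp36 at -0.98, Jun at -0.86, Ier3 at -0.79 and Zfp36l2 at -0.76. Other transcripts with a negative change in WT and a more negative one in KO on this scale were Mc5r at -1.85, Socs1 at -1.83, Klhl11 at -1.39, Mycn at -1.33, Gfi1b at -1.30, Clk1 at -1.29, Tnf at -1.01, Nfkbia at -0.997, Slfn2 at -0.99 and Ccnl1 at -0.80. Mycn was listed at 0 TPM in all libraries at 4 h, so its value holds only the gap between the genotypes at 0 h. Where the WT change was positive, the values were -2.05 for Gem, -1.31 for 2410006H16Rik, -1.04 for Snhg20, -0.99 for H2-Aa, -0.96 for Ppp1r15a, -0.93 for Tmsb10, -0.86 for Hypk, -0.80 for Cxcl3, -0.74 for Pfdn2, -0.53 for Atp6v0c, -0.50 for Pdap1 and -0.49 for Ptms. Higher changes in KO were 0.69 for Hspa8, 1.13 for Znfx1, 1.31 for Chst15, 1.46 for Tifab, 1.64 for Ifit1 and 2.14 for Lenep. Gem, Mc5r, Mycn, Gfi1b, Klhl11, Chst15, Tifab, Ifit1 and Lenep had under 5 TPM at 0 h in at least 1 genotype. The share left at 4 h was larger in KO for Gfi1b (3.21%, against 2.21% in WT), opposite to the sign of its difference on the log2(TPM + 1) scale.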

How the results depend on the processing

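With 33 genes lower and 6 higher in KO by limma on all 12 libraries, median-ratio scaling gave 134 and 28, scaling to housekeeping transcripts 111 and 455, no filter 24 and 15, a mean of at least 5 TPM 44 and 7, pseudocounts of 0.1, 0.5 and 5 gave 23 and 3, 25 and 3, and 112 and 116, no trend 18 and 8, a robust spread 52 and 13, the 8 libraries alone 66 and 27, a length trend removed 34 and 9, and a limit of at least 1 on the difference 17 and 5 (with that limit the genes changed at 4 h in KO were 4344 and the genes changed at 4 h in WT were 4799). Chosen after the data were seen, a GC trend removed gave 30 and 15, GC and length trends 37 and 14, and median-ratio scaling with a mean of at least 5 TPM 191 and 62. Leaving out 1 library gave 8 to 79 lower and 1 to 19 higher. The replicate number as a block gave 32 lower and 8 higher, with 34 of the 39 calls kept. Same-numbered libraries had correlations of their deviations from -0.083 to 0.051. Such values cannot tell whether libraries of the same number shared a culture or preparation, and the labels do not say. Median-ratio scaling, which moved the median difference from 0.05 to -0.01, also turned the split of the 4 h changes from 7579 lower and 544 higher to 3812 and 4172 in KO, and from 7916 and 755 to 3886 and 4112 in WT. No called gene reversed its sign in any alternative that tested it, though with 1 library left out no reversal was possible. Junb, Id1, Cited2, Snhg20 and 2410006H16Rik kept their call in all 28 alternatives. Where counts moved, the cause was not tested. TPM keep no depth, so the precision of low genes cannot be given.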
